A study of Mus musculus with 2 samples.

Results

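The genes of fibrinogen and of the coagulation factors that circulate in plasma were examined in normal and diabetic mouse liver. The members were taken by name, and 9 of the 10 genes sought were among the 8551 genes of the deposited table, namely the fibrinogen chain genes Fga, Fgb and Fgg and the factor genes F2, F7, F9, F10, F11 and F12. F5, the gene of the cofactor factor V, was not among the listed genes and was not analysed here. Both groups were male mice of 9 weeks, labelled as of C57BL/6 strain background, one wild type and one db/db (type 2 diabetic), and the livers were removed about 3 h into the light phase. The db/db mouse carries a mutated leptin receptor in every tissue and becomes obese and hyperglycemic, so genotype, body weight and blood glucose cannot be told apart in this comparison. The methods name a pair of suppliers, do not tie each to a group and do not give the strain background of the db/db mice, so a difference of supplier or substrain cannot be told apart from genotype either. There was 1 library per group, and the methods do not say whether RNA of several mice was pooled, so no difference below has a replicate check and none is a test of diabetes.

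Fibrinogen is a hexamer built from pairs of alpha, beta and gamma chains, and thrombin cuts it into fibrin, the mesh of a clot. Hepatocytes make nearly all of it, together with most clotting enzymes, which circulate as inactive precursors. In the contact and intrinsic route factor XII activates factor XI and factor XI activates factor IX, and in the tissue factor route factor VII acts first. Both routes activate factor X, which turns prothrombin, the product of F2, into thrombin. Fibrinogen is also an acute-phase protein whose transcription is raised by interleukin 6.

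The libraries were made by digital gene expression, in which cDNA is cut with DpnII at GATC and a short tag next to the site is sequenced. Values are in TPM, a gene's tags per 1000000 clean tags of its library, and a tag count does not grow with transcript length. The 2 libraries held 10278531 (normal) and 13508232 (diabetic) clean tags (computed from the smallest steps between values), of which 37.1% and 44.4% lay on listed genes. The median log2 ratio of diabetic over normal was 0.25 over all listed genes, and 4 other scalings between the libraries lowered every ratio by 0.25 to 0.31. These were the sum of listed genes, the trimmed mean of log ratios (TMM), the median ratio and the upper quartile. Ratios are therefore also given relative to that median. Of 8 hepatocyte markers, all were listed and they summed to 17732 TPM in normal and 17599 TPM in diabetic liver. These sums are of deposited values, and the median log2 ratio of the markers was 0.006 as deposited and -0.25 under TMM scaling.

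To show what the assay reads for these genes, the GATC nearest the 3′ end of GENCODE transcripts was located (release M21, GRCm38) and printed in capitals with the 16 bases after it, a length chosen here. Fga is shown for both of its transcripts, since the site differs between them, and the other genes are those with the highest levels or the largest ratios.
Fgg: GATCcatggtgcaaactcca
Fgb: GATCcaaccatcccactcct
Fga, transcript Fga-201: GATCacctcggatgatggct
Fga, transcript Fga-202: GATCttgtgaactttttaaa
F2: GATCaatttggataggtgtg
F11: GATCtgggagaaccactggt
F9: GATCtatattgttctagagt

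Each of these tags occurred at a GATC of 0 other genes among 141767 transcripts. The site lay 83 bases from the transcript end in Fgg (3′ UTR), 352 bases in Fgb (3′ UTR), 128 bases in F2 (coding), 106 bases in F11 (3′ UTR) and 1172 bases in F9 (3′ UTR). A further Fgg transcript, Fgg-202, has its last GATC in the coding sequence, 364 bases from the end. For Fga the site lay 658 bases from the end of Fga-201, inside the coding sequence, and 134 bases from the end of Fga-202, in its 3′ UTR. Which of the tags were counted for a gene cannot be read from the table, which holds 1 value per gene.

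All 3 fibrinogen genes were lower in diabetic mouse liver. Fgg (Entrez 99571), the gamma chain gene, had 52201 reads (5079 TPM) in normal liver and 24816 reads (1837 TPM) in diabetic liver. It was the 6th most abundant listed gene in normal liver and the 33rd in diabetic liver. Its log2 ratio was -1.47 (95% Clopper-Pearson interval for counting error, -1.49 to -1.45), or 2.76-fold lower. Fewer hepatocytes and less RNA per hepatocyte cannot be told apart in such bulk liver RNA. In the same libraries the albumin gene Alb was at 6801 and 6912 TPM (log2 ratio 0.02, or -0.23 under TMM scaling). Other hepatocyte markers differed in both directions, with Apob at 804 and 147 TPM, Apoh at 749 and 1190 TPM and Cps1 at 130 and 317 TPM.

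Fgb (Entrez 110135), which encodes the beta chain, had 26050 reads (2534 TPM) in normal liver and 19758 reads (1463 TPM) in diabetic liver. Its log2 ratio of -0.79 (95% interval, -0.82 to -0.77) corresponds to a 1.73-fold lower level. Fga (Entrez 14161), the alpha chain gene, had far fewer tags, 310 reads (30.2 TPM) in normal liver and 149 reads (11.03 TPM) in diabetic liver. Its log2 ratio was -1.45, with a wider interval of -1.74 to -1.16, and it was 2.73-fold lower. Relative to the median listed gene the log2 ratios were -1.72 for Fgg, -1.05 for Fgb and -1.70 for Fga. Under the 4 other scalings they ranged from -1.77 to -1.72, from -1.10 to -1.05 and from -1.76 to -1.70 in the same order.

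Together the fibrinogen genes took 0.764% of the clean tags of normal liver (95% Clopper-Pearson interval, 0.759% to 0.770%) and 0.331% in diabetic liver (0.328% to 0.334%). The summed level was 7643 TPM against 3311 TPM (log2 ratio -1.21, 95% interval -1.22 to -1.19). Most of this difference in TPM was on 1 chain, since Fgg differed by -3242 TPM, Fgb by -1072 TPM and Fga by -19.1 TPM. Such a difference follows the number of tags of each gene, and as a ratio Fgg was 2.76-fold, Fga 2.73-fold and Fgb 1.73-fold lower.

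**Figure D1:**
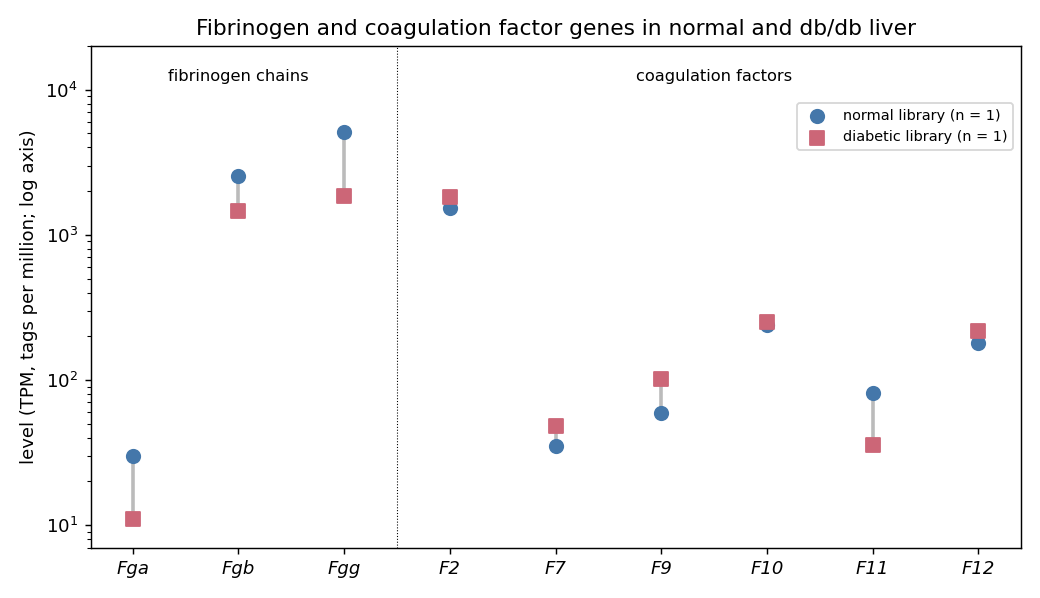
Levels of the 9 listed genes in TPM (log axis) in the normal library (circles) and the diabetic library (squares), 1 library each and no error bar. Fgg, Fgb, Fga and F11 are lower in the diabetic library, F9 is higher (59.0 against 102 TPM), and F2 and F10 lie close together.

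Levels of 2 genes within 1 library do not depend on the scaling between libraries, so the chains were set against each other. In normal liver Fgg had 2.00 tags for each tag of Fgb, and in diabetic liver 1.26. The log2 ratio of Fgb was above that of Fgg by 0.67 (95% interval from the 4 read counts, 0.64 to 0.71), so the beta chain gene was less reduced than the gamma chain gene by more than counting error. Fga and Fgg differed in log2 ratio by only 0.02 (-0.27 to 0.30), a wide interval because of the few Fga reads. Fga took 0.395% of the fibrinogen tags in normal liver and 0.333% in diabetic liver, against 66.4% and 55.5% for Fgg. The 3 chains enter the protein in equal number, and the tags of Fga were 168-fold fewer than those of Fgg in normal liver and 167-fold fewer in diabetic liver. Whether the position of the Fga tag plays a part in its low count was not tested.

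Apart from F11, the factor genes did not share the lower level of fibrinogen. F2 (Entrez 14061), which encodes prothrombin, was the most abundant factor gene with 15830 reads (1540.1 TPM) in normal liver and 24429 reads (1808 TPM) in diabetic liver. Its log2 ratio was 0.23 (95% interval, 0.20 to 0.26), which was -0.02 relative to the median listed gene and between -0.07 and -0.02 under the 4 scalings. The direction of F2 thus depended on the scaling. Fgg had 3.30 tags for each tag of F2 in normal liver and 1.02 in diabetic liver, a difference of log2 ratios of -1.70 (-1.73 to -1.66).

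In the contact and intrinsic route, factors that act one after another did not differ alike. F12 (Entrez 58992), the gene of factor XII that starts contact activation, had 1836 reads (179 TPM) in normal liver and 2944 reads (218 TPM) in diabetic liver. Its log2 ratio of 0.29 (95% interval, 0.20 to 0.37) was 0.03 relative to the median listed gene and ranged from -0.02 to 0.03 under the scalings. F11 (Entrez 109821), encoding the factor XI that factor XII activates, had 833 reads (81.0 TPM) in normal liver and 485 reads (35.9 TPM) in diabetic liver. It was 2.26-fold lower, with a log2 ratio of -1.17 (-1.34 to -1.01), and stayed between -1.48 and -1.43 under the scalings. F9 (Entrez 14071), the gene of factor IX and of the bleeding disorder hemophilia B, had 606 reads (59.0 TPM) in normal liver and 1373 reads (102 TPM) in diabetic liver. Its diabetic level was thus 1.72 times the normal one, with a log2 ratio of 0.79 (0.65 to 0.93).

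Among the 9 genes F9 alone exceeded 1.5-fold upwards, but its log2 ratio of 0.48 to 0.53 under the 4 scalings lay within 1.5-fold. The contrast of F9 with F11 did not depend on the scaling. For each tag of F11 there were 0.728 tags of F9 in normal liver and 2.83 in diabetic liver. Their log2 ratios differed by 1.96 (95% interval, 1.75 to 2.17). Against the fibrinogen genes, the log2 ratio of F11 lay above that of Fgg and below that of Fgb. The differences were -0.29 for Fgg minus F11 (-0.46 to -0.13) and 0.38 for Fgb minus F11 (0.22 to 0.55). With the few reads of Fga, the interval of Fga minus F11 held 0, at -0.28 (-0.60 to 0.05).

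Of the factors common to both routes or of the tissue factor route, none differed by 1.5-fold. F7 (Entrez 14068), whose product binds tissue factor, had 363 reads (35.3 TPM) in normal liver and 656 reads (48.6 TPM) in diabetic liver (log2 ratio 0.46, 95% interval 0.27 to 0.65). Under the scalings F7 lay between 0.15 and 0.21. F10 (Entrez 14058), encoding the factor X that cuts prothrombin, had 2447 reads (238 TPM) in normal liver and 3363 reads (249 TPM) in diabetic liver. Its log2 ratio of 0.06 had an interval of -0.01 to 0.14 that held 0, and it was between -0.24 and -0.19 under the scalings. Ordered by level, the factor genes ran F2, F10, F12, F11, F9 and F7 in normal liver and F2, F10, F12, F9, F7 and F11 in diabetic liver. F11 thus passed from above F9 and F7 to below both, and F7 had 1.35 tags for each tag of F11 in diabetic liver.

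**Figure D2:**
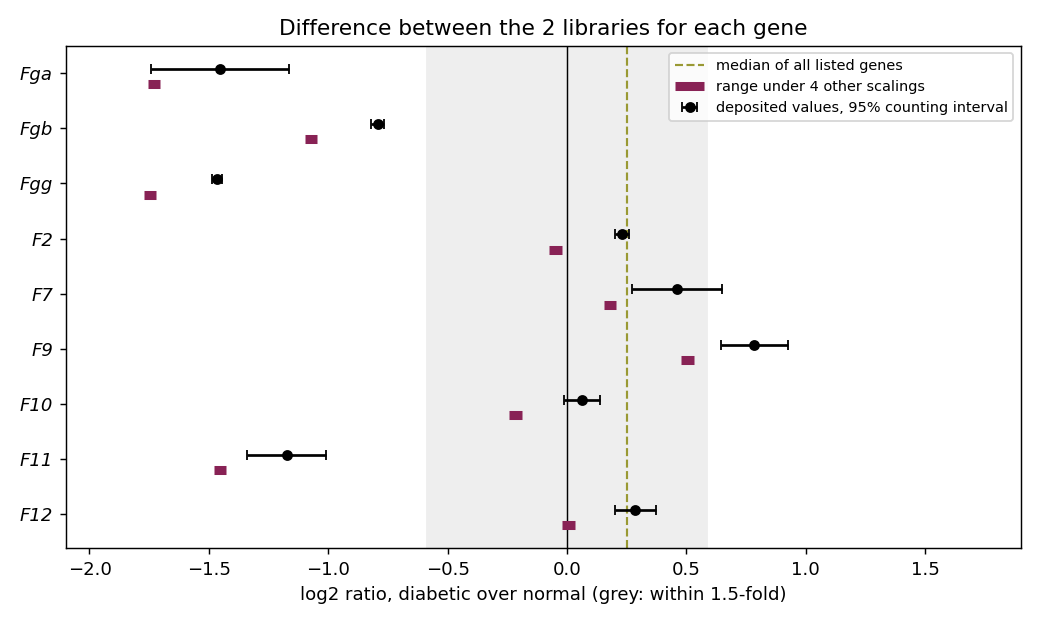
Log2 ratio of diabetic over normal for each gene (points) with the 95% Clopper-Pearson interval for counting error, and the range under 4 other scalings (thick bars below each point); the grey band is within 1.5-fold and the dashed line the median of all listed genes at 0.25. The 3 fibrinogen genes and F11 lie left of the band under every scaling shown, while F9 lies right of it only for the deposited values.

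By the fold of at least 1.5 that the study used, 4 of the 9 genes were lower, Fga, Fgb, Fgg and F11, where 15.3% of all listed genes were lower. At least 1.5-fold higher was 1 of the 9, where 34.4% of all listed genes were higher. Adding a false discovery rate (FDR) under 0.001 (exact binomial test of the reads, two-sided, a comparison of the 2 libraries and not of the conditions) left the same 4 lower and 1 higher, with backgrounds of 8.19% and 22.9%. The median log2 ratio was -1.45 over the 3 fibrinogen genes and 0.26 over the 6 factor genes, against 0.25 over all listed genes. Summed over the 6 factor genes, the level was 2132 TPM in normal and 2461 TPM in diabetic liver, most of it from F2 (1540.1 and 1808 TPM). The log2 ratio of these sums, 0.21, was smaller than the 0.25 to 0.31 by which the 4 other scalings lower every ratio. Its direction thus depended on the scaling. There were 3.58 fibrinogen tags for each factor tag in normal liver and 1.35 in diabetic liver. Over all 36 pairs of the 9 genes, the 95% counting interval of the difference in log2 ratio excluded 0 for 32 pairs and held it for 4, with no adjustment for the number of pairs.

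**Figure D3:**
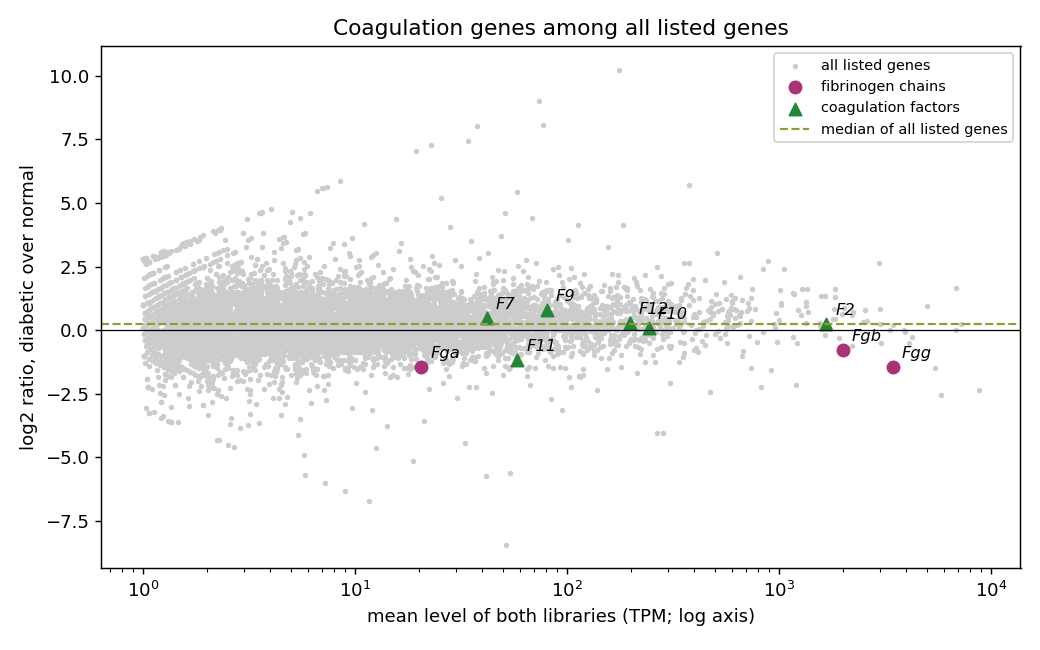
Log2 ratio of diabetic over normal against the mean level of both libraries in TPM (log axis) for all 8551 listed genes (grey), with the fibrinogen genes (circles) and factor genes (triangles) named. Fgg, Fga and F11 lie in the lower part, with 3.10%, 3.27% and 4.91% of all listed genes at a lower log2 ratio, and F2 and F12 lie at the dashed median.

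The fibrinogen genes lie next to each other on chromosome 3 in the order Fgg, Fga and Fgb, with no protein-coding gene between them in RefSeq (GRCm38.p6). The nearest listed genes on either side lay within 1.5-fold. Lrat, a retinol esterifying enzyme, stood at 4.18 TPM in normal and 6.00 TPM in diabetic liver. Its log2 ratio of 0.52 had a wide interval of -0.03 to 1.09, which reached past 1.5-fold. The splicing factor gene Plrg1 was at 20.8 and 17.9 TPM, with a log2 ratio interval of -0.49 to 0.06. F11 lies beside Klkb1, the gene of plasma prekallikrein, which had only 3.21 and 2.96 TPM and an interval of -0.82 to 0.59 that spans both directions. F7 and F10 are neighbours on chromosome 8, followed by Proz at 58.2 and 70.6 TPM, and all of these differed by less than 1.5-fold.

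Since the fibrinogen genes were lower together, and F11 and F9 lay at opposite ends of the factor genes, the 250 bases before the transcription start of these genes are shown (RefSeq, GRCm38.p6). Capitals mark matches, on either strand, to the acute-phase STAT3 letters CTGGGAA or the C/EBP core TTGCNNAA.
Fgg (chr3:83007474-83007723, plus strand): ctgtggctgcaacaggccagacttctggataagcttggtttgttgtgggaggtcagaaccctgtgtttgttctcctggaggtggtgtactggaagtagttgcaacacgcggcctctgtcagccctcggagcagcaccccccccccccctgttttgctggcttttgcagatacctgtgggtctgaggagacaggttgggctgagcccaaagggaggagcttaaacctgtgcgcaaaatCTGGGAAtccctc
Fga (chr3:83025903-83026152, plus strand): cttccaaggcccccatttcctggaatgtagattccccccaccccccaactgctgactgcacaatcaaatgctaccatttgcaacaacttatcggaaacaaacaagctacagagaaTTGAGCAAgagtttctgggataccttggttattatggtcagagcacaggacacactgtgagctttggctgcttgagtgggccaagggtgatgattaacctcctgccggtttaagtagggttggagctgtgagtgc
Fgb (chr3:83049864-83050113, minus strand): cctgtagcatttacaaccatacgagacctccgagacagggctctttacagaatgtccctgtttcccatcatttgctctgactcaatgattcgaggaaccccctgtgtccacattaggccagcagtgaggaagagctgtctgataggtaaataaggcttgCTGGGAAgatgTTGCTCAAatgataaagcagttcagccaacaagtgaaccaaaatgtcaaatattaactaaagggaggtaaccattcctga
F11 (chr8:45262032-45262281, minus strand): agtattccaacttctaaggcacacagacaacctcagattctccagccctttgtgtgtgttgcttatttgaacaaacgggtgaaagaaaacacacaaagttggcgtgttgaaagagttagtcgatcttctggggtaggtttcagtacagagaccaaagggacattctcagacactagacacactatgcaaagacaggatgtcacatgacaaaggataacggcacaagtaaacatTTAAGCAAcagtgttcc
F9 (chrX:59999214-59999463, plus strand): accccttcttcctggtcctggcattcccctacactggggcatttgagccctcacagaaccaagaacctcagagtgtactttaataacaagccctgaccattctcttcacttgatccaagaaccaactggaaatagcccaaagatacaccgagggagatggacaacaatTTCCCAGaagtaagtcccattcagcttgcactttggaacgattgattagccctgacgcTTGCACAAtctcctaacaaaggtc

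CTGGGAA was found in Fgg (13 to 7 bases before the start), Fgb (91 to 85) and F9 (82 to 76), and in 9.10% of all 32851 promoter windows of this length. The C/EBP letters were found in Fga (135 to 128 bases before the start), Fgb (80 to 73), F9 (24 to 17) and F11 (17 to 10), against 9.56% of windows. The letters CAAAGTCCA of an HNF4 site and TATAAA of a TATA box were found in 0 of the 10 promoters, F5 included, against 0.384% and 12.4% of windows. None of the marked letters overlapped. Lower genes (Fgb) and the higher gene (F9) both held CTGGGAA and the C/EBP letters, and these matches say nothing of binding.

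Of 8 other genes that promote clotting 7 were listed, and 4 of these were lower by 1.5-fold or more and 0 higher, with a median log2 ratio of -0.60. That compares with 15.3% lower and 34.4% higher over all listed genes. Only Kng2 of the 4 lower genes also met the FDR. Kng1, the kininogen gene and by far the most abundant of them, stood at 787 TPM in normal and 667 TPM in diabetic liver. Its relative Kng2 had 218 and 143 reads (21.2 and 10.6 TPM, 95% interval of the log2 ratio -1.32 to -0.69). F13b, which carries the fibrin cross-linking factor XIII, was at 301 and 353 TPM. F8, the cofactor of factor IX that liver endothelial cells make, was at 8.95 TPM and 5.11 TPM (log2 ratio -0.81, 95% interval -1.28 to -0.34). Vwf, with 20 and 17 reads, and the tissue factor gene F3, with 15 and 13 reads, had intervals that held 0.

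Among 10 listed genes that limit clotting, 2 stood higher by 1.5-fold or more and 2 lower in the deposited values, against 0 higher and 4 lower under each of the 4 other scalings. The share over all listed genes was computed for the deposited values only (15.3% lower, 34.4% higher). Since the 4 scalings lower every ratio, they can only add lower calls and remove higher ones, also among all listed genes. The median log2 ratio of the 10 inhibitor genes was 0.06, or -0.19 under TMM scaling. Serpinc1, the gene of antithrombin that blocks thrombin and factor X, stood at 1312 TPM in normal and 2329 TPM in diabetic liver (log2 ratio 0.83, 95% interval 0.80 to 0.86). Serpind1, which encodes heparin cofactor II, was at 175 and 308 TPM (log2 ratio 0.81, 95% interval 0.73 to 0.89). Under TMM scaling these became 0.57 and 0.56, within 1.5-fold. Serpina10, the protein Z-dependent inhibitor of factor X, was at 37.2 and 24.1 TPM (log2 ratio -0.63, 95% interval -0.85 to -0.41), while Procr had only 15 and 13 reads. Hrg (864 and 826 TPM), C4bp (318 and 396 TPM), Proc of protein C (93.6 and 68.3 TPM) and Pros1 of protein S (68.3 and 77.8 TPM) lay within 1.5-fold in the deposited values. Under TMM scaling Proc had a log2 ratio of -0.71 and counted as lower, as did Tfpi at -0.82, which is named here because its call changed. Tfpi had only 54 and 48 reads, and its deposited log2 ratio of -0.56 had an interval of -1.16 to 0.02 that held 0.

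Among the genes of fibrinolysis, which dissolves the clot, 4 of 8 listed were lower by 1.5-fold or more and 2 higher, with a median log2 ratio of -0.69. By that fold, 15.3% of all listed genes were lower and 34.4% higher. Both plasminogen and its inhibitor were lower. Plg, the plasminogen gene, stood at 464 TPM in normal and 250.4 TPM in diabetic liver (log2 ratio -0.89, 95% interval -0.95 to -0.83). Serpinf2, encoding the plasmin inhibitor alpha-2-antiplasmin, was at 332 and 138 TPM (log2 ratio -1.27, 95% interval -1.35 to -1.19). Habp2, a plasma protease, was at 63.9 and 32.1 TPM, and Serpine2, a thrombin and plasminogen activator inhibitor, had 47 and 16 reads. The higher genes were S100a10 (138 and 269 TPM) and Anxa2 (6.03 and 18.9 TPM), which together form a plasminogen receptor on cell surfaces. Cpb2, whose product protects fibrin from lysis, was at 319 and 363 TPM, and Plau of urokinase had 29 and 27 reads. Plau counted as lower under each of the 4 scalings (-0.75 with TMM), which made 5 lower.

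Prothrombin and factors VII, IX and X need vitamin K-dependent carboxylation, and of 8 listed genes of the vitamin K cycle and factor secretion 4 were higher by 1.5-fold or more and 0 lower. Higher by that fold were 34.4% of all listed genes, and 15.3% were lower. Nqo1, a quinone reductase, stood at 2.72 TPM in normal and 22.5 TPM in diabetic liver (log2 ratio 3.05, 95% interval 2.49 to 3.66). Lman1 and Mcfd2, whose products carry factors V and VIII out of the endoplasmic reticulum, had log2 ratios of 0.63 (0.50 to 0.76) and 0.91 (0.84 to 0.99). The carboxylase gene Ggcx was at 27.1 and 23.2 TPM, and the epoxide reductase gene Vkorc1 at 97.7 and 134 TPM, both within 1.5-fold. Vkorc1l1, a relative of Vkorc1, had a log2 ratio of 0.68 (0.21 to 1.17) and alone of the 4 higher genes did not meet the FDR. Under TMM scaling 2 of the 8 stayed at least 1.5-fold higher, with Mcfd2 at 0.66 and Nqo1 at 2.80.

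Apart from the fibrinogen genes themselves, no reported gene with a fibrinogen domain was lower by 1.5-fold or more. Of 3 such genes reported, 2 were higher by 1.5-fold or more (1 under each of the 4 scalings) and 0 lower. Over all listed genes 34.4% were higher and 15.3% lower as deposited. Angptl4, an inhibitor of lipoprotein lipase, was at 18.8 and 31.5 TPM (log2 ratio 0.74, or 0.49 under TMM scaling), and Fgl2 had 17 and 43 reads. Fgl2, which stayed higher under the scalings, did not meet the FDR. Fgl1, a secreted hepatocyte protein, was at 263 and 229 TPM (log2 ratio -0.20, or -0.46 under TMM scaling), so its ratio lay on the side of fibrinogen.

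Fibrinogen was next set beside other acute-phase genes. Of 13 listed, 3 were higher by 1.5-fold or more and 2 lower, with a median log2 ratio of 0.17. The shares over all listed genes were 34.4% higher and 15.3% lower. Saa3 (-1.75) and Apcs (-0.71), encoding serum amyloid proteins, had lower values like fibrinogen. In contrast Orm3 (2.90), Lcn2 (2.10) and the complement gene C3 (0.62) were higher. The abundant haptoglobin gene Hp was at 1427 and 1002 TPM, Hpx of hemopexin at 2279 and 2942 TPM, Itih4 at 260.1 and 258 TPM and Itih3 at 205 and 137 TPM, each within 1.5-fold in the deposited values. Under TMM scaling 2 of the 13 were higher and 4 lower, since Hp (-0.76) and Itih3 (-0.83) then counted as lower and C3 (0.37) no longer as higher, and the median became -0.08.

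Among liver transcription factors and genes of interleukin 6 signalling, 4 of 13 genes reported were lower by 1.5-fold or more and 2 higher, with a median log2 ratio of -0.28. Over all listed genes 15.3% were lower and 34.4% higher as deposited. Under TMM scaling 6 of the 13 were lower and 0 higher, and no share over all listed genes was computed for that scaling. Hnf4a, a factor that drives many hepatocyte genes, stood at 96.8 TPM in normal and 46.2 TPM in diabetic liver (log2 ratio -1.07, 95% interval -1.21 to -0.92). Jak1, a kinase of the interleukin 6 receptor, had a log2 ratio of -1.13 (-1.41 to -0.84), and Foxa3 one of -0.81 (-1.14 to -0.49). The other lower gene, Socs3, had only 22 and 18 reads. The higher genes were Cebpb (120 and 188 TPM) and Nr1h4 of the bile acid receptor (56.1 and 93.7 TPM). Cebpa (218 and 255 TPM), Nr0b2 (60.6 and 43.7 TPM), Stat3 (49.4 and 40.7 TPM) and Foxa2 (37.5 and 42.8 TPM) lay within 1.5-fold in the deposited values. Under TMM scaling Nr0b2 (-0.73) and Jak2 (-0.66, named here because its call changed) counted as lower, while Cebpb (0.40) and Nr1h4 (0.49) lay within 1.5-fold. Whether any of these differences plays a part in the fibrinogen values was not tested.

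**Figure D4:**
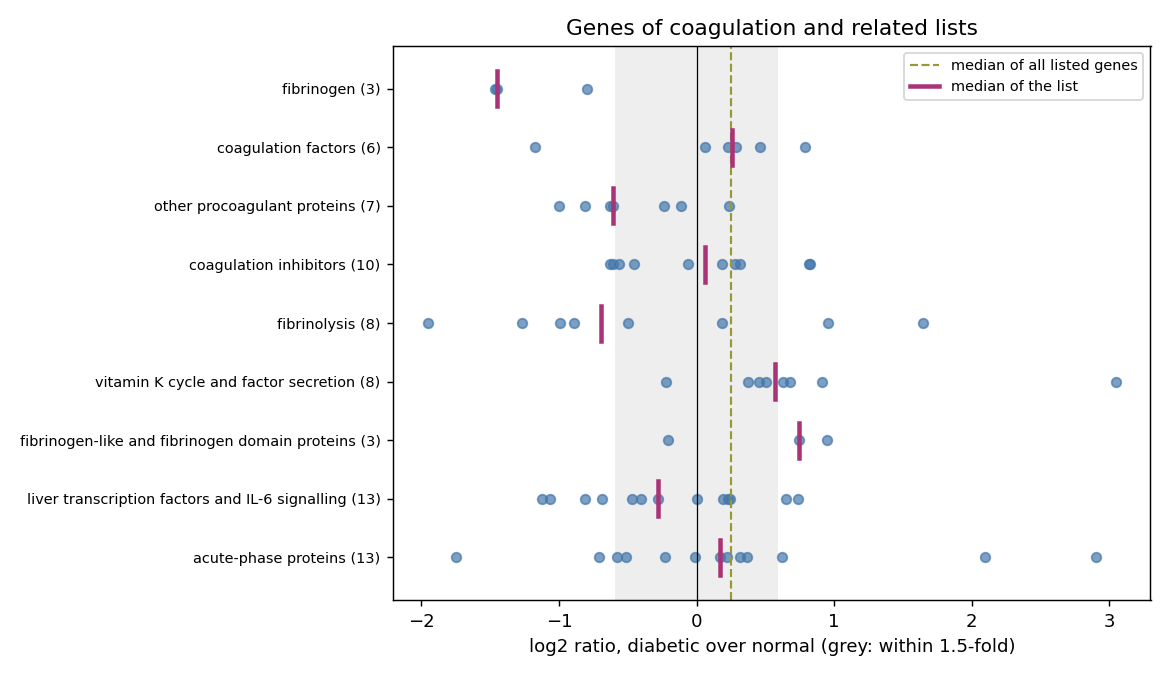
Log2 ratio of diabetic over normal for each listed gene of the 9 gene lists (points, number of listed genes in brackets) with the list's median (vertical bar); the grey band is within 1.5-fold and the dashed line the median of all listed genes. The fibrinogen median lies at -1.45, the fibrinolysis median at -0.69 and the median of fibrinogen-like genes at 0.74.

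Markers of other cells were set beside these values. As a background for their counts, 15.3% of all listed genes were at least 1.5-fold lower and 34.4% higher as deposited. Of 10 platelet and megakaryocyte markers only Pf4 was listed, with 2 reads in normal and 29 in diabetic liver. Of 9 sinusoidal endothelial markers 1 was at least 1.5-fold lower and 2 higher, and their summed level was 127 TPM against 116 TPM (2 lower and 2 higher under TMM scaling). Of 11 macrophage and Kupffer cell symbols sought, which include both names of 1 gene (Emr1 and Adgre1), 8 were listed. Of these 4 were lower and 1 higher (5 and 0 under TMM scaling), with sums of 327 and 194 TPM, of which C1qa alone had 176 and 50.7 TPM. Besides C1qa, the lower genes as deposited were Csf1r, C1qc and Emr1, and the higher gene was C1qb, at 38.1 and 57.8 TPM. Of 8 erythroid markers only Alas2 was listed, at 51.9 and 44.2 TPM. Among the hepatocyte markers 5 of 8 lay within 1.5-fold, while Apob was at 804 and 147 TPM, Apoh at 749 and 1190 TPM and Cps1 at 130 and 317 TPM. Under TMM scaling Apoh (0.41) also lay within 1.5-fold. The part of cell composition in the ratios of the coagulation genes was not tested.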

How the data were processed

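Liver RNA of 1 normal and 1 diabetic library was used, grouped by the sample titles. The authors isolated poly(A) RNA, cut the cDNA with DpnII, sequenced tags on an Illumina 1G instrument, compared clean tags with RefSeq and deposited RPM values, which they call TPM, with 0.01 in place of 0. The submitters' processing notes name mm9. The aligner and the handling of tags common to several genes are not given in the sources used here. The lowest mean of a listed gene was 1.00 TPM after rounding, so rarer genes are missing from every count, and values of samples not used numbered 0.

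Reads per gene were recovered from the smallest differences between values, 0.0973 TPM per read in the normal and 0.0740 in the diabetic library. Within 0.1 read, 8513 of 8513 and 8536 of 8537 values above the placeholder were whole. For fold changes a value under 3 reads was set to 3 reads. Fold changes use deposited values with no pseudocount. Intervals (95%) cover counting error only, since the tags carry no molecular identifiers and may be copies of 1 molecule, and 1 library per group gives no error between mice. Intervals for pairs of genes are normal approximations on the log scale. The FDR is a two-sided exact binomial test with Benjamini-Hochberg adjustment over 8551 genes.

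The members and gene lists were chosen with earlier results of these data known. Every member is named, and of each list other than the cell markers the genes at least 1.5-fold different and up to 4 of the most abundant others. Of the cell markers only some are named. A few entries of the lists are not reported here and are left out of the counts. With 2 libraries each gene has 1 ratio, so no search for genes of like pattern was made. Alternatives were scaling to the listed sum, by TMM (trims of 30% and 5%), median ratio (genes of at least 10 TPM) or upper quartile (75th percentile), pseudocounts of 0.1 and 1 TPM, a mean of at least 5 TPM, a fold of 2 and the FDR. All members matched RefSeq by Entrez identifier. Since mm9 and GRCm38 differ, coordinates are given only with the GRCm38.p6 promoters. The computation was tested on simulated reads. Tables were handled with pandas 2.3.3 in Python 3.11.15, tests run with scipy 1.17.1 and numpy 2.4.6, and figures drawn with matplotlib 3.10.9.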

Additional observations from a re-analysis of the deposited data

How the results depend on the processing

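The 4 lower members stayed lower under the 4 scalings, both pseudocounts, the filter and the FDR, and 3 of them with a fold of 2, where Fgb at 1.73-fold left the count. The 1 higher member, F9, left the count under each of the 4 scalings and with a fold of 2, giving 0. The median log2 ratio of the factor genes, 0.26 as deposited, was -6.0e-05 with the listed sum, 0.0066 with TMM, -0.046 with the median ratio and -0.0089 with the upper quartile. The fibrinogen median was -1.76 with the median ratio. The scalings shift every ratio by 1 amount by construction, so differences between members did not move. No paired or leave-one-out value was possible because there is 1 library per group. At 149 reads, Fga limits what can be said of the alpha chain, and the counting intervals of Vwf, F3, Procr, Tfpi, Plau, Klkb1 and Socs3 held 0.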
